A study of Mus musculus with 178 samples.

Results

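Red cell maturation was followed in mouse blood through 8 genes, Alas2, Fech, Tfrc, Slc4a1, Epb42, Bpgm, Gata1 and Klf1. They were taken by their symbols from the raw count table, where they are 8 of 55450 gene rows. C57BL/6J mice of both sexes, 6 to 8 weeks old, carried 4MOSC1 tumors, a syngeneic line of mouse oral squamous cell carcinoma placed in the tongue or the buccal mucosa, and every animal received anti-PD-1 antibody (clone RMP1-14). Blood drawn from behind the eye on Days 4, 9, 17 and 24 gave 178 bulk libraries of polyadenylated RNA from 45 mice. Response was scored on tumor size, giving 15 responders, with 15, 15, 14 and 15 libraries over the 4 days, and 30 non-responders, with 29, 30, 30 and 30. Day 4 preceded treatment. No untreated or tumor-free mice were analysed here, so antibody, tumor growth, repeated bleeding and age moved with the day and cannot be told apart.

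Young red cells, the reticulocytes, leave the bone marrow without a nucleus but still holding messenger RNA, which is lost over the following days as the cell becomes a mature erythrocyte. Blood RNA from the red cell lineage is therefore mostly reticulocyte RNA. Heme synthesis begins with Alas2, the erythroid 5-aminolevulinate synthase, and ends with Fech, the ferrochelatase that puts iron into the ring. Tfrc is the transferrin receptor, which takes up that iron and is also made by dividing lymphocytes. Slc4a1 (band 3, the anion exchanger) and Epb42 (protein 4.2) sit next to each other in the membrane, where they anchor the spectrin skeleton. Bpgm makes 2,3-bisphosphoglycerate, which lowers the oxygen affinity of hemoglobin. Gata1 and Klf1 are transcription factors that switch on erythroid genes, and Gata1 also acts in megakaryocytes, eosinophils and mast cells. In whole blood, a change in the number of red cells of a given age and a change in the RNA held by each cannot be told apart.

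Promoter sequence is shown for Alas2, Epb42 and Klf1, where letters searched for GATA factors lay ahead of the gene, and for the factor gene Gata1 itself. The RefSeq table (GRCm38.p6, windows from 250 bases before to 50 after a start) matched 6 of the 8 members with 7 windows, and Slc4a1 and Fech were not matched. For GATA factors AGATAA was searched on both strands, as were the variant forms TGATAA with another first letter, AGATAG with another last letter, and TGATAG with both. For the Klf1 family CACCC was searched. They stand in capitals below, each sequence read 5′ to 3′ on the strand of the gene. Epb42 is shown at chr2:121037073-121037127 (minus), Klf1 at chr8:84901732-84901927 (plus), Gata1 at chrX:7967911-7968160 (minus) and Alas2 at chrX:150547167-150547374 (plus). The Gata1 window lies inside the annotated gene, ahead of a RefSeq start, and the others end just before the first annotated base of the gene.
Alas2: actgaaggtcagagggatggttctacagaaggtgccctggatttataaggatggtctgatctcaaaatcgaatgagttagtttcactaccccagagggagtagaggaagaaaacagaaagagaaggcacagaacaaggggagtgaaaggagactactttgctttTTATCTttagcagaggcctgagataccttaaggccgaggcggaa
Epb42: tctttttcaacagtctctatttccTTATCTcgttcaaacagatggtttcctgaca
Klf1: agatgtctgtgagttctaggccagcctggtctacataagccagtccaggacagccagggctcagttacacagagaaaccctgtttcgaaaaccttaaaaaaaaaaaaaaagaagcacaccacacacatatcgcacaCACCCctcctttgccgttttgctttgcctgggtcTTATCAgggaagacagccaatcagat
Gata1: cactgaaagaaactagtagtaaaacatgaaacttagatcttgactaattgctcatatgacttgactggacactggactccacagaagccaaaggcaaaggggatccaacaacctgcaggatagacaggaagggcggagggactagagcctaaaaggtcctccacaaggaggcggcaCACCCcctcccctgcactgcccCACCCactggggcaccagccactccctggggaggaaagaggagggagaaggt
A GATA match was found in 3 of the 7 windows of the 6 members (those of Alas2, Epb42 and Klf1, each on the reverse strand), against 29.8% of all 32851 promoter windows. CACCC was found in 5 of the 7 windows, which belong to 4 members, against 57.5% of all windows. These matches describe letters only, and binding was not measured.

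In GRCm38 (mm10) with the GENCODE M21 annotation, all 8 are protein-coding genes. Epb42 lies at chr2:121017891-121037072 on the minus strand, Bpgm at chr6:34476207-34505613 on the plus strand, Klf1 at chr8:84901928-84905291 on the plus strand and Slc4a1 at chr11:102348824-102366203 on the minus strand. Tfrc lies at chr16:32608920-32632794 on the plus strand, Fech at chr18:64452914-64490251 on the minus strand, Gata1 at chrX:7959260-7978071 on the minus strand and Alas2 at chrX:150547375-150570638 on the plus strand. Alas2 overlaps Apex2 and Mir3620 on the opposite strand, and whether reads were counted by strand is not given in the sources used here.

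Total counts per library ran from 26058958 to 82208665 with a median of 51971365, and 10 hemoglobin rows took 68.7% to 88.0% of them (median 81.2%). That share averaged 83.0%, 82.7%, 82.6% and 81.8% in responders over the 4 days and 77.8%, 78.2%, 81.6% and 81.5% in non-responders. Marker lists of T cells, B cells, neutrophils, monocytes and platelets were all above 0, as the label of whole blood implies, and Epx of the eosinophil list had a median of 0. Levels were scaled by TMM (trimmed mean of M-values), which sets most genes level between libraries, and are given as log2 counts per 1000000 (log2 CPM). Because hemoglobin fills most of each library, the same counts were also scaled to the summed hemoglobin counts, which compares the members with the main product of the red cell.

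One library differed strongly from the rest. It came from non-responder 29 on Day 24 and had the lowest TMM factor (0.0848) and the highest log2 CPM of its group for every member, such as 17.77 for Alas2 and 12.82 for Slc4a1. Per 1000000 hemoglobin counts its Alas2 was 14.40 and its Gata1 2.75 on the log2 scale. The main edgeR tests of the members that include Day 24 non-responders are therefore given with and without it. Some alternatives, such as the mouse as a block, are given only with it. The ear tags had 4 digits in 11 responders and 7 non-responders and 3 digits in 4 responders and 23 non-responders. What this difference in tags marks is not stated, so the members' comparisons of response are also given within each series of tags. The Day 17 library of non-responder 24 carries a responder label that goes against the other labels of that animal, and it was kept with the non-responders.

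Per length, Alas2 was by far the most abundant member in blood. Its median over the 178 libraries was 3818 TPM (transcripts per 1000000), with a range of 2720 to 5443. Bpgm followed with a median of 997 TPM, Fech with 231, Slc4a1 with 27.8 and Epb42 with 4.60. Gata1 (median 1.25 TPM, SD 0.280) and Tfrc (1.12 TPM, SD 0.486) did not differ beyond their spread. Klf1 was near the limit of detection, with a median of 0.04 TPM and between 0 and 25 counts in a library, so its values carry large counting error. By count, which is not corrected for gene length, Tfrc came before Gata1 and the other members kept that order. The median was 642464 for Alas2, 224905 for Bpgm, 59774 for Fech, 15213 for Slc4a1, 1214 for Epb42, 390 for Tfrc, 255 for Gata1 and 7 for Klf1.

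**Figure D1:**
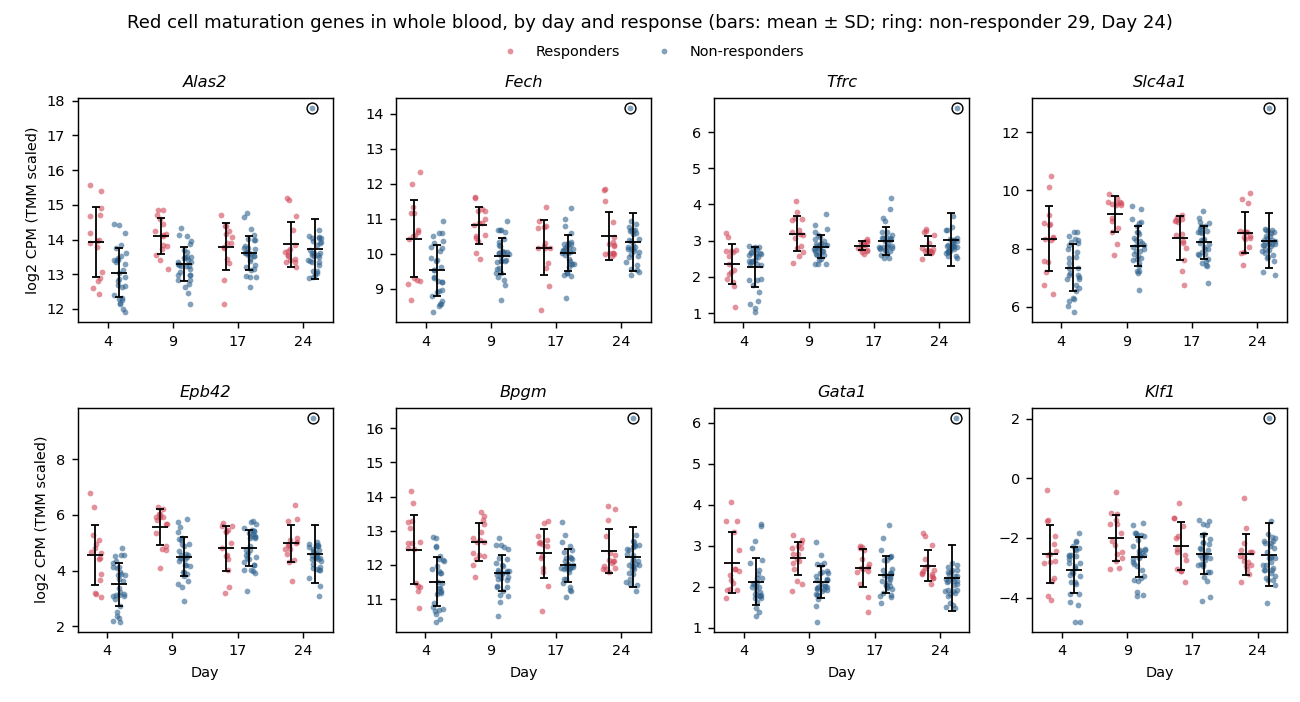
TMM-scaled log2 CPM of each member (y axis) by day (x axis), with 1 point per library, responders in red and non-responders in blue. Bars are mean ± SD and the ring marks the Day 24 library of non-responder 29. Responders sit higher on Days 4 and 9 for most members, for example 9.19 ± 0.63 against 8.09 ± 0.68 for Slc4a1 on Day 9, and the groups overlap on every day.

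Before treatment, blood of the later responders held more RNA of most red cell members relative to other genes (TMM scale), though not relative to hemoglobin counts and with no member called within either series of ear tags. On Day 4, 5 of the 7 members tested were higher in responders, Slc4a1, Epb42, Alas2, Fech and Bpgm, each by about 1 log2 unit. Of all 12620 genes tested, 6.4% were called higher. Gata1 and Tfrc were not called, and Klf1 did not pass the filter on low counts.

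The heme enzymes gave the following Day 4 levels. Alas2 ranged from 12.45 to 15.58 in responders (median 13.96, mean 13.93 ± 1.01 SD, n = 15) and from 11.91 to 14.45 in non-responders (median 13.05, mean 13.05 ± 0.71, n = 29), in log2 CPM. Fech ranged from 8.67 to 12.32 in responders (median 10.54) and from 8.33 to 10.92 in non-responders (median 9.52). For both enzymes 5 of 15 responders lay above every non-responder and none lay below them all, so the groups overlapped. The fitted difference in edgeR's quasi-likelihood test was 1.05 ± 0.26 (log2 fold change ± SE, 2.07-fold, adjusted p = 0.00732) for Alas2 and 1.11 ± 0.26 (adjusted p = 0.0041) for Fech.

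The membrane pair differed most. Slc4a1 ranged from 6.43 to 10.49 log2 CPM in responders (median 8.36) and from 5.81 to 8.57 in non-responders (median 7.33). Epb42 ranged from 3.03 to 6.79 in responders (median 4.65) and from 2.16 to 4.80 in non-responders (median 3.63). In each of the 2 genes, 12 of 15 responders were above the non-responder median and 6 were above every non-responder. By edgeR's quasi-likelihood test Slc4a1 was 2.35-fold higher (1.23 ± 0.28 on the log2 scale, adjusted p = 0.00335) and Epb42 2.45-fold higher (1.30 ± 0.27, adjusted p = 0.003). Bpgm had a median of 12.64 log2 CPM in responders and 11.49 in non-responders, and it was higher by 1.10 ± 0.25 (edgeR, adjusted p = 0.00381).

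The transcription factor and the iron receptor stood differently on Day 4. Gata1 had a median of 2.39 log2 CPM in responders and 2.00 in non-responders, a difference of 0.53 ± 0.20 that was not called (edgeR, adjusted p = 0.107). Tfrc differed by 0.08 ± 0.16 (adjusted p = 0.786), with 7 of 15 responders above the non-responder median. Both values turned negative when libraries were scaled by their totals (-0.31 for Gata1 and -0.66 for Tfrc), where the median of all genes was -0.69.

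On Day 9 all 8 members were called higher in responders with TMM scaling, against 9.43% of the 12608 genes tested. Slc4a1 had a median of 9.52 log2 CPM in responders (7.77 to 9.89) and 8.07 in non-responders (6.57 to 9.47), and 9 of 15 responders exceeded every non-responder. It was 2.08-fold higher (1.05 ± 0.19, edgeR adjusted p = 6.1e-05). Epb42 had a median of 5.83 in responders (4.08 to 6.30) and 4.48 in non-responders (2.90 to 5.84), and it was higher by 1.02 ± 0.20 (edgeR adjusted p = 0.000136). Except in Tfrc and Klf1, 14 of 15 responders lay above the non-responder median of the gene.

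For heme synthesis on Day 9, Alas2 had a median of 14.13 log2 CPM in responders (13.15 to 14.86) and 13.29 in non-responders (12.15 to 14.32). The difference was 0.81 ± 0.16 (edgeR, adjusted p = 0.000119), and that of Fech 0.88 ± 0.15 (adjusted p = 4.21e-05). Bpgm was higher by 0.91 ± 0.16 (adjusted p = 4.52e-05). The smaller differences belonged to Gata1 (0.58 ± 0.12, adjusted p = 0.000236) and Tfrc (0.40 ± 0.12, adjusted p = 0.0139), both of which turned negative with library totals (-0.11 and -0.27), where the median of all genes was -0.70. Tfrc ranged from 2.37 to 4.09 log2 CPM in responders and from 2.34 to 3.73 in non-responders, and 12 of 15 responders were above the non-responder median and 2 above every non-responder. Klf1 differed by 0.79 ± 0.26 (adjusted p = 0.0311) on a handful of counts per library.

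Within the 3-digit tags, the Day 9 differences were 1.20 for Slc4a1, 0.90 for Alas2 and 0.43 for Tfrc, with 6 of 8 members called, against 3.96% of all genes. Within the 4-digit tags they were 0.50, 0.41 and 0.17, and edgeR called none of the 7 tested, with 2 at an unadjusted p under 0.05. On Day 4 Slc4a1 differed by 1.47 within the 3-digit and by 0.96 within the 4-digit tags and Alas2 by 1.34 and 0.86, with no member called by edgeR in either series (6 of 8 and 5 of 7 at an unadjusted p under 0.05), which held 4 and 11 responders. With the tag series as a covariate, edgeR called 6 of 7 members on Day 4, against 10.7% of all genes, Gata1 now among them (0.72, adjusted p = 0.0317), and 6 of 8 on Day 9, against 5.89%, without Tfrc and Klf1. The sign of Tfrc on Day 4 turned to -0.08 in that fit.

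Scaled to hemoglobin, the same counts gave a different picture. On this scale the median of all genes was 0.78 lower in responders on Day 4 and on Day 9, where hemoglobin took 83.0% of their libraries against 77.8% on Day 4 and 82.7% against 78.2% on Day 9 (means), and 87.5% and 92.1% of genes were called lower on the 2 days. Unlike that median, 5 members lay close to 0 per hemoglobin count. On Day 4 Alas2 differed by 0.02 ± 0.04, Fech by 0.03 ± 0.09, Bpgm by 0.08 ± 0.06, Slc4a1 by 0.13 ± 0.14 and Epb42 by 0.17 ± 0.17, none of them called. Gata1 (-0.41, adjusted p = 0.015) and Tfrc (-0.77, adjusted p = 0.0276) were lower per hemoglobin count in responders.

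On Day 9, 3 members were called higher in responders per hemoglobin count, against 0.523% of all genes. These were Slc4a1 (0.34 ± 0.12, adjusted p = 0.00867), Epb42 (0.29 ± 0.14, adjusted p = 0.0427) and Bpgm (0.12 ± 0.04, adjusted p = 0.00917). Alas2 (0.02 ± 0.03) and Fech (0.09 ± 0.06) were not called, and Tfrc was lower (-0.34, adjusted p = 0.0305). With the tag series added as a covariate on this scale, edgeR called none of the members on either day, with 1 at an unadjusted p under 0.05 on Day 4 and 0 on Day 9. The hemoglobin genes themselves were called higher in responders on the TMM scale in 3 of 7 tested on Day 4 (Hbb-bt by 1.10), against 6.4% of all genes, and in 7 of 7 on Day 9, against 9.43%.

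**Figure D2:**
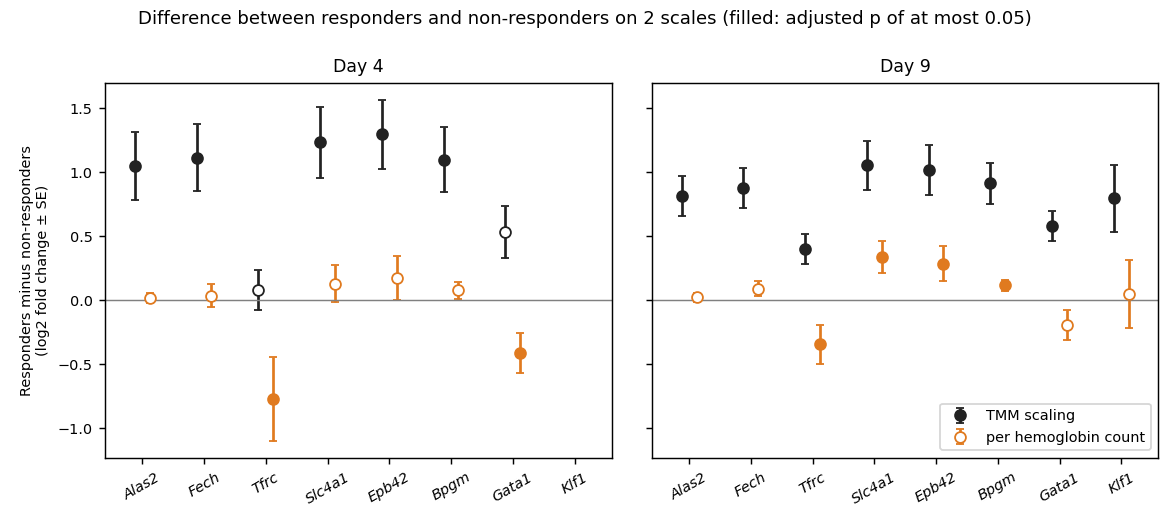
Log2 fold change of responders against non-responders ± SE (y axis) for each member (x axis) on Days 4 and 9, in black with TMM scaling and in orange per hemoglobin count, with filled points where the adjusted p is at most 0.05. When set against hemoglobin, Alas2 falls from 1.05 to 0.02 on Day 4, where Slc4a1 also falls and is not called. On Day 9 Slc4a1 falls from 1.05 to 0.34. Tfrc and Gata1 fall below 0 on both days. Klf1 was not tested on Day 4.

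On Day 17 edgeR called none of the 7 members tested, against 1.99% of all genes in either direction, with 1 at an unadjusted p under 0.05, and DESeq2 called none either. The largest difference was that of Bpgm, 0.41 ± 0.17 (adjusted p = 0.161). The others were 0.23 for Alas2, 0.23 for Fech, 0.20 for Slc4a1, 0.15 for Gata1, 0.04 for Epb42 and -0.19 for Tfrc, and Klf1 was not tested. Alas2 had a median of 13.91 log2 CPM in responders and 13.60 in non-responders, and Epb42 a mean of 4.79 ± 0.82 against 4.82 ± 0.65. Within the 3-digit tags all 8 estimates were below 0, from -0.56 to -0.11, and within the 4-digit tags the 7 ran from -0.32 to 0.34.

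On Day 24 none was called with all libraries, none was at an unadjusted p under 0.05, and fitted values ran from -0.38 (Epb42) to 0.17 (Gata1), against 8.55% of all genes called. Without the library of non-responder 29, edgeR called 3 of 7 higher in responders against 12.6% of all genes, Slc4a1 by 0.56 ± 0.16 (adjusted p = 0.0109), Epb42 by 0.63 ± 0.16 (adjusted p = 0.00543) and Gata1 by 0.44 ± 0.10 (adjusted p = 0.00287). DESeq2 called 3 members higher with all libraries, against 8.72% of all genes. The mean Epb42 level was 4.97 ± 0.66 log2 CPM in responders, 4.60 ± 1.03 in all non-responders and 4.43 ± 0.46 without that library. Among the edgeR fits of Day 24, members were called only in the one without it. Within the 3-digit tags, which do not hold it, the Day 24 differences ran from 0.11 (Klf1) to 0.67 (Slc4a1), and within the 4-digit tags, which hold it, from -1.84 (Epb42) to -1.04 (Gata1). EdgeR called no gene in either series (0.0%), with 6 of 8 and 5 of 7 members at an unadjusted p under 0.05. When that library was left out of the 4-digit tags the direction turned for 6 of the 7 members, with values from -0.24 (Tfrc) to 0.53 (Epb42), none called by edgeR (0.258% of all genes) and 1 at an unadjusted p under 0.05.

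In the main edgeR test on the TMM scale, Tfrc was called higher than on Day 4 in both response groups on each later day. All changes from Day 4 below share the Day 4 libraries of their group. In responders its median rose from 2.35 log2 CPM on Day 4 (1.16 to 3.22) to 3.18 on Day 9 (2.37 to 4.09), and 14 of 15 mice rose. The change was 0.84 ± 0.14 by Day 9 (edgeR, adjusted p = 7.68e-06), 0.41 by Day 17 (adjusted p = 0.0245) and 0.43 by Day 24 (adjusted p = 0.0244). Tfrc was the 1 member of 8 called on each of these days in responders, against 13.5%, 12.2% and 7.44% of all genes called higher. That count does not set the members apart from all genes. The responders' calls on Days 17 and 24 were lost with either tag series alone, with library totals, with limma and with a 1.5-fold minimum. In non-responders it rose by 0.50 on Day 9 (adjusted p = 0.0054), with 24 of 29 mice rising, and it was higher in 29 of 29 mice on Day 17. Per hemoglobin count no Tfrc change from Day 4 was called, and in non-responders it was -0.01 on Day 17 and -0.06 on Day 24, where the median of all genes had moved to -0.53.

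In responders the other members did not pass the test from Day 4 on the TMM scale. By Day 9 Slc4a1 had changed by 0.54 ± 0.29 (adjusted p = 0.158) and Epb42 by 0.73 ± 0.29 (adjusted p = 0.0511), and with the mouse as a block in the model Epb42 passed (0.93, adjusted p = 0.0172). Klf1 gave 0.74 ± 0.36 (edgeR, unadjusted p = 0.0458, adjusted p = 0.121). The other estimates were -0.05 for Alas2, 0.11 for Fech, 0.01 for Bpgm and 0.01 for Gata1. Single mice varied widely, and Alas2 was higher in 8 of 15 mice with an SD of the change of 1.23.

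In non-responders the membrane genes were called higher by Day 9. On Day 9 Slc4a1 (0.68, edgeR adjusted p = 0.0174), Epb42 (0.97, adjusted p = 0.00139) and Tfrc were called, 3 of 8 members against 23.3% of all genes called higher. Klf1 (0.56), Fech (0.32), Bpgm (0.16), Alas2 (0.15) and Gata1 (-0.06) were not called. The Day 9 difference of changes, responders minus non-responders, was -0.15 for Slc4a1 and -0.25 for Epb42, neither called by edgeR. On Day 17, 4 of 8 were called in non-responders, against 21.9%, namely Slc4a1 (0.74), Epb42 (1.25, edgeR adjusted p = 6.83e-05), Tfrc (0.67) and Klf1 (0.65, adjusted p = 0.0336). Without the Day 24 library of non-responder 29, which takes part in the shared estimate of spread, 7 were called on Day 17, against 24.3% of all genes, and DESeq2 called 7, against 24.8%.

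By Day 24, 6 of 8 members were called higher in non-responders than on Day 4, against 23.8% of all genes. Epb42 was higher by 1.80, Slc4a1 by 1.503, Bpgm by 1.14, Fech by 1.13, Alas2 by 1.07 and Tfrc by 0.84. Without the library of non-responder 29 the same 6 passed, against 22.8%, with smaller changes, 0.80, 0.60, 0.45, 0.54, 0.39 and 0.54. Gata1 changed by 0.16, and by -0.12 without that library, and was not called. With the mouse as a block, the 6 changes lay between 0.63 (Alas2) and 1.07 (Epb42). On the TMM scale no member was called in either group between Days 9 and 17, against 5.53% of all genes in responders, with 4 members at an unadjusted p under 0.05 and 1 called lower by DESeq2, and 26.5% in non-responders, with none at an unadjusted p under 0.05 and none called by DESeq2. Per hemoglobin count some members were called in each group over this interval, with the counts given below under the dependence on processing. The share of all genes called there is not reported here, so these calls do not set the members apart from all genes. Mean changes within mice on that scale were -0.70 in responders and -0.29 in non-responders for Slc4a1. They were -0.65 and -0.09 for Epb42, -0.18 and -0.18 for Bpgm, and -0.18 and -0.10 for Alas2. Between Days 17 and 24 on the TMM scale none was called in responders (18.9% of all genes, none at an unadjusted p under 0.05 or by DESeq2) and 4 were called higher in non-responders (9.86%), but without the library of non-responder 29 no member was higher and 1 was called lower, against 14.4% of all genes. With the mouse as a block no member was called in non-responders over this interval, and DESeq2 called 1.

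Set against hemoglobin, a rise by Day 9 was seen in both groups. There the median of all genes moved by -0.12 in responders and -0.14 in non-responders. In responders 5 of 8 members rose, against 2.53% of all genes, with Epb42 up by 1.05 ± 0.18 (edgeR adjusted p = 2.87e-05), Slc4a1 by 0.89 ± 0.15 (adjusted p = 2.44e-05), Fech by 0.42, Bpgm by 0.25 and Alas2 by 0.22. In non-responders the same 5 rose, against 9.76%, by 0.93, 0.68, 0.36, 0.21 and 0.21. Alas2 per hemoglobin rose in 13 of 15 responders and 26 of 29 non-responders. Gata1, Klf1 and Tfrc were not called in either group. From Day 4 to Days 17 and 24 no member was called in responders on this scale, with 1 and 5 at an unadjusted p under 0.05.

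Later in non-responders the higher members per hemoglobin count were Epb42 (0.87), Slc4a1 (0.39) and Alas2 (0.11) on Day 17, against 1.86% of all genes called higher, and these 3 with Fech (0.28) and Bpgm (0.21) on Day 24, against 1.27%. Gata1 was lower, by -0.30 on Day 17 (adjusted p = 0.0011) and by -0.46 on Day 24 (adjusted p = 2.47e-06). The median of all genes moved by -0.53 on both days, and 76.6% and 79.1% of them were called lower. Without the library of non-responder 29 the Day 24 values were 0.50 for Epb42, 0.34 for Slc4a1, 0.14 for Alas2, 0.27 for Fech, 0.19 for Bpgm and -0.47 for Gata1, with the same 6 members called, against 1.24% of all genes higher and 76.2% lower.

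Whether the groups changed differently was tested with an interaction term. By Day 9 edgeR called no member and no gene of 13688 (0.0%), with 0 members and 719 genes at an unadjusted p under 0.05, and DESeq2 called no gene. Estimates ran from -0.25 for Epb42 to 0.33 for Tfrc. By Day 17 no member was called, against 0.351% of all genes, and none by DESeq2, although 4 members had an unadjusted p under 0.05 and Epb42 gave -1.23 ± 0.43. Without the Day 24 library of non-responder 29 it was the 1 member called on Day 17, at -1.24, against 0.0511% of all genes called lower. On Day 17, 5 members were called within the 3-digit tags, against 3.22% of all genes, from -1.63 for Bpgm to -1.98 for Epb42. Within the 4-digit tags edgeR called no gene on Day 17, with 0 members at an unadjusted p under 0.05. By Day 24 the change was lower in responders than in non-responders for 5 members (Alas2, Fech, Slc4a1, Epb42 and Bpgm), against 2.1% of all genes, and without the library of non-responder 29 none was called, with values from -0.63 to -0.68 and 5 members at an unadjusted p under 0.05. The responders' own changes of these 5 from Day 4 to Day 24 ran from -0.23 (Alas2) to 0.16 (Epb42), none of them called. EdgeR called no gene on Day 24 within the 3-digit tags (0.0%), with 0 members at an unadjusted p under 0.05, and within the 4-digit tags, which hold the library of non-responder 29, 6 members were called, from -1.55 (Gata1) to -2.92 (Epb42), against 4.01% of all genes. Without that library the 4-digit values ran from -0.57 (Fech) to -0.11 (Tfrc), and edgeR called no gene (0.0%), with 0 members at an unadjusted p under 0.05. Scaled to hemoglobin with all libraries, none of the 5 members was called on Day 24 and 4 of them changed sign, Slc4a1 to 0.037, Epb42 to 0.080, Fech to 0.011 and Alas2 to 0.0061, with Bpgm at -0.03, where the median of all genes was 0.62.

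Ratios between members within a library need no scaling, and they were examined after the values had been seen. Each was taken to Alas2, and 80 comparisons were tested by permutation of 100000 resamples, across mice for response and by sign flips within mice for days, with Benjamini-Hochberg adjustment. From Day 4 to Day 9 Slc4a1 rose relative to Alas2 by 0.66 log2 units in responders (13 of 15 mice, adjusted p = 0.0024) and by 0.50 in non-responders (25 of 29, adjusted p = 0.00016). Epb42 rose by 0.82 (14 of 15, adjusted p = 0.000945) and 0.75 (26 of 29, adjusted p = 0.00016). Fech rose by 0.22 (14 of 15) and 0.16 (21 of 29). Bpgm moved by 0.04 and 0.005 relative to Alas2 on Day 9 and was not called, and on Day 17 it was called lower in non-responders (-0.079, adjusted p = 0.0264) and not in responders (0.04). Summed hemoglobin fell relative to Alas2 by 0.22 and 0.21 log2 units, with 2 of 15 and 3 of 29 mice higher. The Epb42 ratio was still above Day 4 on Day 17 (0.42 in responders and 0.77 in non-responders) and on Day 24 (0.48 and 0.44), each called. The Slc4a1 ratio was called above Day 4 on Day 17 in non-responders (0.31, adjusted p = 0.00545) and not in responders (0.19, adjusted p = 0.177), a difference that was not tested, and on Day 24 in both groups, by 0.27 in each. The Fech ratio was called above Day 4 on Day 24 (0.15 and 0.14) and not on Day 17 (-0.10 and -0.06). No change of the Tfrc ratio (0.09 to 0.67) or the Klf1 ratio (0.06 to 0.52) from Day 4 was called in either group by the permutation test. Without the library of non-responder 29 the Day 24 changes in non-responders were 0.42 for Epb42 and 0.27 for Slc4a1.

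**Figure D3:**
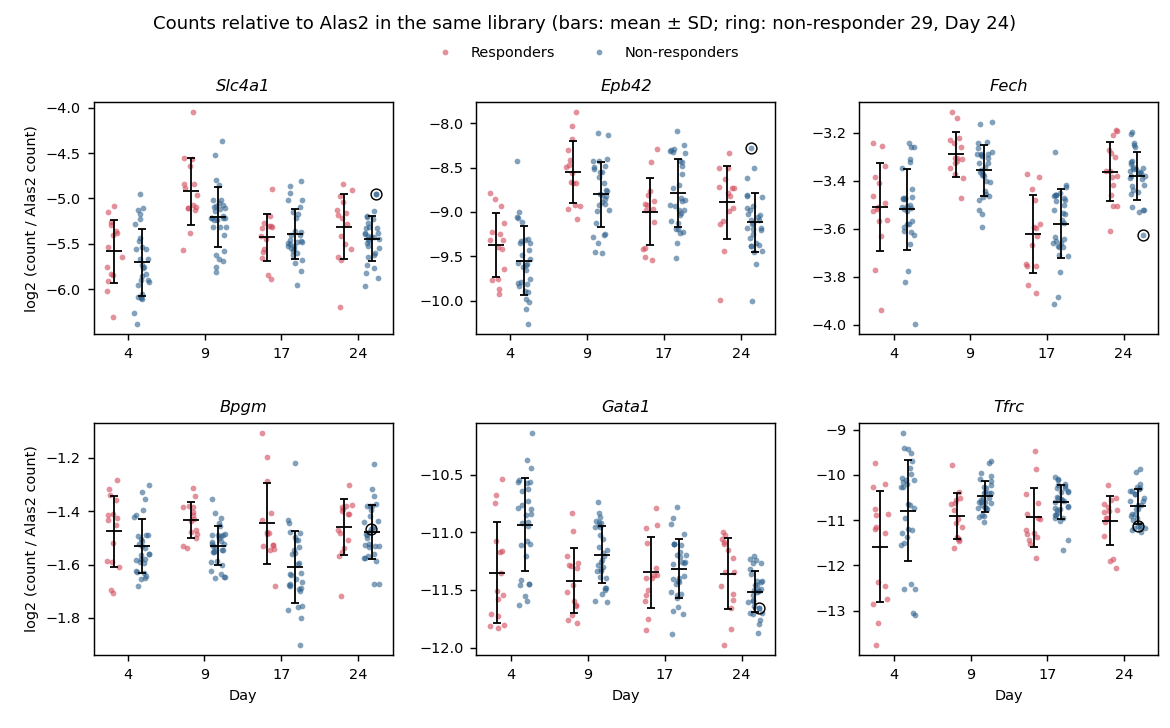
Log2 ratio of each member's count to the Alas2 count of the same library (y axis) by day (x axis), with 1 point per library, responders in red, non-responders in blue, bars for mean ± SD and a ring around the Day 24 library of non-responder 29. Slc4a1 and Epb42 stand highest relative to Alas2 on Day 9 in responders, at -4.92 ± 0.37 and -8.55 ± 0.35, and Gata1 falls in non-responders from -10.93 on Day 4 to -11.51 on Day 24.

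Gata1 fell relative to Alas2, as did the median gene. It fell in non-responders by 0.25 on Day 9, 0.38 on Day 17 and 0.58 on Day 24, when 3 of 29 mice were higher than on Day 4 (adjusted p = 0.00016, with an unadjusted 1e-05 as the smallest value the permutations can give). Without the library of non-responder 29 the Day 24 change was -0.60, with 3 of 28 mice higher. Over the 13688 genes that passed the filter, the median change relative to Alas2 in non-responders was -0.24 on Day 9, -0.54 on Day 17 and -0.65 on Day 24 (-0.52 without that library), and 47.6%, 71.5% and 60.1% of the genes (37.6% without that library) changed by a lower value than Gata1. In responders its mean ratio moved by at most 0.07 and was not called on any day (permutation test). Before treatment it was lower in responders than in non-responders by 0.42 (adjusted p = 0.0108) and on Day 9 by 0.22 (adjusted p = 0.0275). Within the 3-digit tags those differences were -0.49 and -0.38, and within the 4-digit tags -0.05 and -0.005, so they did not hold within both series. All genes were not compared between the response groups relative to Alas2, so these differences are not set apart from other genes. Per hemoglobin count, 87.5% of all genes on Day 4 and 92.1% on Day 9 were called lower in responders.

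Between responders and non-responders on Day 9, Slc4a1 per Alas2 was higher by 0.29 (adjusted p = 0.0288) and by 0.25 and 0.17 within the 3-digit and 4-digit tags. Bpgm per Alas2 was higher by 0.10 (adjusted p = 0.000945, 0.09 and 0.07 within the tags) and again on Day 17 by 0.16 (adjusted p = 0.00415, 0.10 in each series). Tfrc per Alas2 was lower on Day 9 by 0.45 (adjusted p = 0.00497, -0.39 and -0.27 within the tags). The Tfrc ratio scattered most on Day 4, with an SD of 1.23 in responders and 1.12 in non-responders, against 0.51 and 0.34 on Day 9. No all-gene value was taken for these ratios, and per hemoglobin count 92.1% of all genes were called lower in responders on Day 9.

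Apart from Tfrc and Klf1 the members rose and fell together from library to library. With each gene centred on the mean of its day and response group, Pearson's r over the 178 libraries was 0.99 for Alas2 with Bpgm, 0.98 for Alas2 with Fech and 0.98 for Slc4a1 with Epb42. Gata1 followed Alas2 at 0.90. Klf1, which had few counts per library, lay between 0.40 and 0.58, and Tfrc between 0.33 and 0.46 with the others. Without the library of non-responder 29 the r of Alas2 with Bpgm was 0.98. Klf1 then lay between 0.19 (with Tfrc) and 0.47 (with Slc4a1), and Tfrc between 0.0074 (with Gata1) and 0.27 (with Epb42). These points share their library scaling, so the coefficients are a description.

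**Figure D4:**
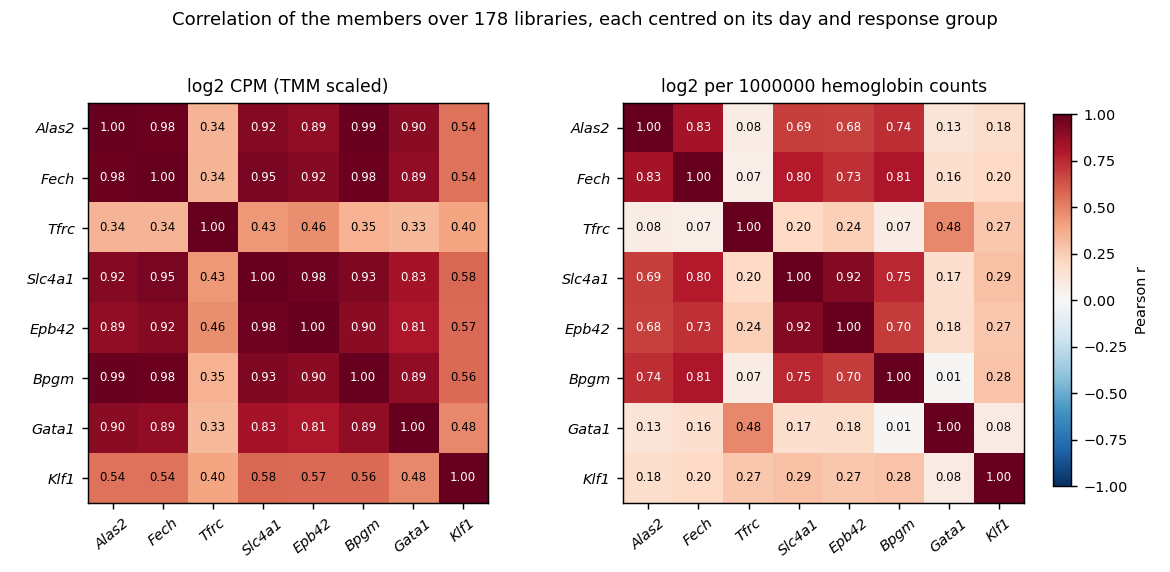
Pearson correlation between members over 178 libraries, each gene centred on its day and response group, with TMM-scaled log2 CPM on the left and log2 counts per 1000000 hemoglobin counts on the right (color scale from -1 to 1). The pair Slc4a1 and Epb42 keeps 0.92 on the right, whereas Alas2 with Gata1 drops from 0.90 to 0.13.

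Set against hemoglobin, Slc4a1, Epb42, Alas2, Fech and Bpgm still varied together, with r from 0.68 (Alas2 with Epb42) to 0.92 (Slc4a1 with Epb42), and 0.83 for Alas2 with Fech. Gata1 and Tfrc had an r of 0.48 with each other, and with Alas2 of 0.13 and 0.08. All 5 followed the markers of proliferating cells, Slc4a1 at 0.78, Epb42 at 0.75, Bpgm at 0.60, Fech at 0.54 and Alas2 at 0.51. Gata1 had its highest r with the summed platelet and megakaryocyte markers (0.68), followed by the early erythroid progenitor (0.56), monocyte (0.55), eosinophil, basophil and mast cell (0.50), neutrophil (0.49), T cell (0.47) and B cell markers (0.42). Tfrc had 0.65 with the early erythroid progenitor markers, 0.63 with B cell and 0.60 with T cell markers. These values share hemoglobin as their divisor. Leaving out the library of non-responder 29, the 5 members lay between 0.66 and 0.92, Gata1 had 0.72 with the platelet and 0.67 with the early erythroid progenitor markers, and Tfrc had 0.73 with the latter, 0.77 with B cell and 0.70 with T cell markers. On the TMM scale Alas2 followed summed hemoglobin at 0.98 and Tfrc at 0.28, and without that library the r of Tfrc was 0.04.

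Marker levels moved beside these results. The 8 platelet and megakaryocyte markers summed to 381 to 2205 CPM in responders and 273 to 2010 in non-responders on Day 4, and to 284 to 918 and 268 to 754 on Day 9, when 6 of 8 were called higher in responders, against 9.43% of all genes. In non-responders 8 of 8 of them were called lower on Day 9 than on Day 4, against 27.5% of all genes, and their sum per 1000000 hemoglobin counts had a median of 968 on Day 4 and 473 on Day 24, or 478 without the library of non-responder 29. None of these markers had a median of 0. Their part in the Gata1 values was not tested. Of the 8 markers of proliferating cells, 5 of 7 tested were higher in responders on Day 4, against 6.4% of all genes, and 5 of 8 on Day 9, against 9.43%, and the median of their sum was 73.2 and 41.1 CPM on Day 4 and 110 and 56.5 on Day 9 in responders and non-responders. The 5 early erythroid progenitor markers summed to 4.13 to 9.90 CPM on Day 4 in either group and none was called between responders and non-responders on Day 4 or 9. From Day 4 to Day 9 all 5 T cell markers fell in both groups, and 3 of 5 B cell markers fell in responders and 5 of 5 in non-responders, against 14.2% and 27.5% of all genes called lower. Over the same days 2 of 5 neutrophil markers rose in responders and 4 in non-responders, against 13.5% and 23.3% of all genes, with the median of their sum at 230.4 and 381 CPM in responders and 191 and 338 in non-responders. Of the 5 monocyte markers 3 and 5 rose, against the same shares, with medians of 433 and 571 CPM on the 2 days in responders and 321.8 and 551 in non-responders. Per hemoglobin count Tfrc correlated with the neutrophil and monocyte sums at 0.57 and 0.58. The part of these cells in the Tfrc values was not tested.

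The genes with the pattern most like the members were taken by mean correlation with all 8 over the 178 libraries, on centred log2 CPM. They were Slc25a51 (0.843), Wdr26 (0.840), Dnajb6, Fbxo7, Usp15, Cd24a, Ghitm, Fbxo9, Smox and Pabpc4 (0.835), and their correlations with single members ran down to 0.40.

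Most genes of the membrane, late maturation and enzyme lists were higher in responders on Days 4 and 9 on the TMM scale, beside 6.4% and 9.43% of all genes called higher. The lists were not tested against each other. Among 18 genes of the red cell membrane and its skeleton, 17 were tested between responders and non-responders. On Day 4, 13 were higher in responders (median log2 fold change 1.12) and on Day 9, 16 (0.97), where the median of all genes was -0.01 and -0.02. Epb41, which joins spectrin to actin, was higher by 1.14 and 0.90, and the beta spectrin chain Sptb by 1.09 and 1.02. Of 16 genes for late maturation and clearance, 14 were higher on each day (medians 1.08 and 0.82), among them Bnip3l, needed to clear mitochondria from reticulocytes (1.10 and 0.82), Mkrn1 (1.08 and 0.87), Ube2l6 (1.06 and 0.91) and Tent5c (1.13 and 0.79).

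Of a list of 10 genes, red cell enzymes and the globin chaperone Ahsp, 8 were tested, and 7 were higher on Day 4 (median 1.08) and 8 on Day 9 (0.92). Ahsp had no row among the counts, and Pklr had a median of 0. Car2, a carbonic anhydrase, was higher by 1.20 and 1.11, and the antioxidant enzymes Gpx1 by 1.14 and 0.90, Cat by 0.98 and 0.87 and Prdx2 by 1.10 and 0.97. Of the 17 heme and iron genes 8 and 12 passed, against the same 6.4% and 9.43% of all genes, with medians of 0.24 and 0.37. They included Slc25a37, the mitochondrial iron carrier (1.08 and 0.81), Glrx5, which serves iron-sulfur clusters (1.22 and 1.00), and the ferritin chains Ftl1 (0.90 and 0.77) and Fth1 (0.68 and 0.48).

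Of 10 other transcription factors of the lineage, 1 was higher on Day 4, Lmo2 (0.97), and 4 on Day 9 (6.4% and 9.43% of all genes), with medians of 0.16 and 0.21. Ldb1 (-0.09 and -0.05) and Zbtb7a (0.03 and -0.01) were not called on either day. Foxo3 gave 0.13 on Day 4, which was not called, and was higher by 0.20 on Day 9. Scaled to hemoglobin, no gene of these 5 lists was higher in responders on Day 4, while 12 heme and iron genes, 9 factors, 4 membrane genes, 2 late maturation genes and 1 enzyme were lower, beside the 87.5% of all genes called lower there. On Day 9 on that scale 7 membrane genes, 3 enzymes, 2 late maturation genes and 1 heme or iron gene were higher, and 3, 1, 2 and 11 were lower, as were 8 factors, beside 92.1% of all genes. On Days 17 and 24 none of the membrane, maturation, enzyme or heme genes was called by edgeR with all libraries on the TMM scale. Of all genes 1.99% and 8.55% were called on these days in either direction. On Day 24 without the library of non-responder 29, 14 membrane genes (median 0.51), 10 late maturation genes (0.41), 7 enzymes (0.55), 6 heme and iron genes (0.14) and 7 factors (0.31) were called higher in responders, against 12.6% of all genes, and 1 factor lower. Within the 3-digit tags 14 membrane, 13 late maturation, 6 enzyme and 8 heme and iron genes and 1 factor were called higher on Day 9, against 3.96% of all genes, and none on Day 4 (0.0%). Within the 4-digit tags edgeR called no gene of any kind on either day (0.0% of all genes), and the membrane medians were 0.86 on Day 4 and 0.44 on Day 9.

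Per hemoglobin count, genes of the membrane, enzyme and late maturation lists rose from Day 4 to Day 9, beside 2.53% of all genes called higher in responders and 9.76% in non-responders. The membrane list rose in 13 of 17 genes in each group (median 0.69 in responders and 0.56 in non-responders), with Epb41 up by 0.62 and 0.56. Car2 rose by 1.05 and 0.80, and 6 of 8 enzymes rose in responders (median 0.61) and 7 in non-responders (0.48), where 1 fell. Late maturation genes rose in 8 and 13 of 16 (medians 0.41 and 0.38), heme and iron genes in 1 and 5 of 17, and none of the 10 factors rose in responders and 1 in non-responders, where 2 fell.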

How the data were processed

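Blood RNA was made into libraries with a poly(A) kit (SMARTer) and, per the labels and the study's methods, aligned to mm10. STAR is named in the submitters' processing notes, without a version. The counting tool, its annotation and its use of strand are not given in the sources used here. The authors deposited estimated counts per gene, 3.14% of them not whole, which were rounded. The authors also deposited TPM, calculated from the raw counts, with length and depth removed. All 55450 gene IDs matched GENCODE M21, and no 2 libraries were identical.

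Members and gene lists were chosen with earlier results of these data known. The rule was to cover the 8 members in every comparison, and where a member has no value of its own it is within a range or count given. Of each list all genes were counted and at most 4 named, by highest mean log2 CPM. Some of these genes are not reported here. Likeness names the 10 genes outside the members and hemoglobin with the highest mean Pearson r. Groups came from the labels, and the same ear tag marks the same mouse. The sources differ on whether antibody began right after the Day 4 bleed or a few days later.

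The main test was edgeR's quasi-likelihood test (edgeR 4.0.16, R 4.3.3) with TMM scaling and a filter on low counts, without a mouse block, fitted per day for response, per group for days, and over all libraries for the difference of changes. A gene was called where its p, after Benjamini-Hochberg adjustment over all genes tested, was at most 0.05. Levels are log2 CPM with a prior count of 2. Ratios used a pseudocount of 0.5. Alternatives were DESeq2 1.42.0, limma 3.58.1 on log2(TPM + 1) and log2(TPM + 0.1), library totals, hemoglobin scaling, count filters (at least 1 in any or 10 in every library), a 1.5-fold minimum, tag series, left-out mice or libraries, the conflicting label as written, and the mouse as a block. Because libraries share mice across days, the block is the paired form. The mean correlation of deviations between libraries of the same mouse ran from -0.05 to 0.097 over the pairs of days. The edgeR script was tested on simulated data. Figures used matplotlib 3.10.9, and other steps Python 3.11.15, numpy 2.4.6 and pandas 2.3.3.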

Additional observations from a re-analysis of the deposited data

Results flagged for a closer look

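The change from Day 4 to Day 24 differed between responders and non-responders by an interaction term in edgeR for 5 members. The difference of changes (responders minus non-responders, log2) was -1.50 ± 0.41 for Slc4a1 (adjusted p = 0.0251), -1.59 ± 0.43 for Epb42 (adjusted p = 0.0251), -1.22 ± 0.35 for Fech (adjusted p = 0.0322), -1.27 ± 0.36 for Alas2 (adjusted p = 0.0291) and -1.31 ± 0.36 for Bpgm (adjusted p = 0.026). Without the Day 24 library of non-responder 29 the values were -0.65, -0.64, -0.68, -0.63 and -0.67 in the same order, with adjusted p from 0.197 to 0.288, and edgeR called none. With the mouse as a replicate block they were -0.77, -0.74, -0.81, -0.80 and -0.86, and none was called. Scaled to hemoglobin they were 0.037, 0.080, 0.011, 0.0061 and -0.03 in that order, and none was called. The part of that library's low TMM factor in the result was not tested.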

How the results depend on the processing

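The members' values for response, for changes from Day 4 and for the difference of changes were compared under each alternative other than those named below as chosen after seeing the data. Of 1207 such values, 986 kept their side of the threshold, 59 newly passed, 119 no longer passed and 43 reversed. In 179 of those that were not called in either fit the sign changed. Of 253 counts of members called, 169 stayed within 1.5 times and 84 moved. These counts take no account of which members were called or in which direction, so both can differ where a count stayed. Leaving out 1 mouse at a time could change the sign of 27 of 136 differences in mean log2 CPM, over response, changes between days and differences of changes. The cause of each move was not tested. Klf1, with a median of 7 counts, is limited by depth.

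Counts that moved are numbers of members called in either direction. They cover responders against non-responders (response), changes between days and the difference of changes. For fits not described above, the share of all genes called is not reported here. With hemoglobin scaling the count was 2 on Day 4 and 4 on Day 9 for response. On Day 4 these were Gata1 and Tfrc, both lower, where 87.5% of all genes were called lower. On Day 9 Slc4a1, Epb42 and Bpgm were higher and Tfrc lower, where 0.523% of all genes were called higher and 92.1% lower. In responders the count was 5 from Day 4 to 9, 0 from Day 4 to 17 and to 24, and 2 from Day 9 to 17. In non-responders it was 5 from Day 4 to 9, 5 from Day 9 to 17 and 2 from Day 17 to 24, and for the Day 24 difference of changes 1. With library totals it was 5 for response on Day 9, in responders 5, 0, 0 and 2 over the same intervals, in non-responders 5, 3 and 2, and 1 for the difference. With limma on log2(TPM + 1) it was 3 for response on Day 4, in responders 5, 0, 0 and 1, in non-responders 5, 4 and 1, and 1 for the difference. With limma on log2(TPM + 0.1) it was 2, then 5, 0, 0 and 1, then 6, 3 and 1, and 1.

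With the 3-digit tags alone it was 0 for response on Day 4, 0 in responders from Day 4 to 17 and to 24, 1 and 0 in non-responders from Day 9 to 17 and Day 17 to 24, and 5 and 0 for the difference on Days 17 and 24. With the 4-digit tags alone it was 0 for response on Days 4 and 9, 2, 0 and 0 in responders from Day 4 to 9, 17 and 24, and 0 in non-responders from Day 4 to 9, Day 4 to 17 and Day 17 to 24. DESeq2 gave 3 for response on Day 24, 1 in responders from Day 9 to 17, 7 and 1 in non-responders from Day 4 to 17 and Day 17 to 24, and 3 for the Day 24 difference. Without the Day 24 library of non-responder 29 it was 3 for response on Day 24, 7 and 1 in non-responders over those intervals, and 1 and 0 for the difference on Days 17 and 24. A 1.5-fold minimum gave 0 in responders from Day 4 to 17 and to 24, at least 10 counts in every library 2 from Day 4 to 9, and at least 1 count in any library 2 for the Day 24 difference.

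The mouse as a replicate block gave 2 in responders from Day 4 to 9, 0 in non-responders from Day 17 to 24 and 0 for the Day 24 difference, and moved no other count by over 1.5 times. The following were chosen after seeing the data. The replicate block with hemoglobin scaling gave 5, 0, 0 and 2 in responders, 5, 5 and 2 in non-responders and 1 for the Day 24 difference. Hemoglobin scaling with the tag series as a covariate gave 0 for response on Days 4 and 9 and 0 for the Day 24 difference. Hemoglobin scaling with the library of non-responder 29 left out gave 5 and 5 in non-responders from Day 4 to 9 and Day 9 to 17 and 1 for the difference. The 4-digit tags without that library gave 0 for the Day 24 difference. The ratios to Alas2 were also added then.

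Values that reversed are given for library totals, hemoglobin scaling, log2(TPM + 1) and log2(TPM + 0.1), in that order. For response, Gata1 was -0.31, -0.41, -0.21 and -0.34 on Day 4 and -0.11, -0.19, -0.095 and -0.16 on Day 9, and Tfrc was -0.66, -0.77, -0.31 and -0.63 on Day 4 and -0.27, -0.34, -0.19 and -0.35 on Day 9. Gata1 in non-responders was -0.22, -0.30, -0.15 and -0.23 from Day 4 to 17 and -0.38, -0.46, -0.25 and -0.40 from Day 4 to 24, and its Day 24 difference of changes 0.51, 0.61, 0.30 and 0.50. Alas2 in responders from Day 4 to 9 was 0.21, 0.22, 0.24 and 0.24. With hemoglobin scaling alone, Tfrc in non-responders was -0.014 on Day 17 and -0.055 on Day 24 against Day 4, and the Day 24 difference of changes was 0.0061 for Alas2, 0.080 for Epb42, 0.011 for Fech and 0.037 for Slc4a1, with Epb42 at 0.0049 by log2(TPM + 1). For response on Day 24, Slc4a1 was 0.55 with DESeq2 and 0.56 without the library of non-responder 29, and Epb42 0.62 and 0.63.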
